A study of Mus musculus with 6 samples.

Results

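Heterotrimeric G protein subunits and regulators of G protein signalling were followed in pancreatic islets with a deletion of the transcription factor Neurod1 aimed at beta cells. Members were chosen by symbol: the numbered and lettered Gna (alpha), Gnb (beta), Gng and Gngt (gamma) and Rgs genes. This gave 53 of the 23284 genes in the count files: 16 alpha, 5 beta and 12 gamma subunit genes and 20 Rgs genes. The knockout group consisted of 3 libraries (numbered 4, 5 and 6) of islets from Neurod1-floxed/floxed; Rip-Cre+ mice, and the control group of 3 libraries (7, 10 and 16) of islets from Neurod1-floxed/floxed mice without Cre. All mice were 12 weeks old, and the strain is given in the labels as C56BL/J. Rip-Cre expresses the Cre recombinase from the rat insulin promoter, so the deletion is aimed at beta cells and not at other islet cells. Which cells lost or kept the gene was not measured in this bulk RNA. Because the controls carried no Cre, effects of Cre and of the deletion cannot be told apart. Whether a library stands for 1 animal or a pool is not stated in the labels, and p-values here reflect the spread between libraries only.

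A receptor that binds its hormone or transmitter makes the alpha subunit exchange GDP for GTP, after which alpha and the beta-gamma dimer act on separate effectors. Gs alpha stimulates adenylyl cyclase, which amplifies insulin secretion, Gi and Go alpha lower secretion, and Gq alpha activates phospholipase C beta. Rgs proteins speed up GTP hydrolysis by alpha subunits of the Gi and Gq families and so end the signal.

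Total counts ranged from 12206393 to 20412435 per library. Levels are given as CPM, counts per 1e+06 counts of the library after its total was scaled by the TMM factor. Neurod1 itself was at 28.4, 29.7 and 31.2 CPM in knockout libraries 4, 5 and 6, against 198, 177 and 140 CPM in control libraries 7, 10 and 16. The summed CPM of 10 beta cell markers was 132292 to 148951 in knockout and 174564 to 192815 in control, with 3 of 10 higher (Pdx1, Nkx6-1 and Slc2a2), 3 lower and a median log2 fold change of 0.20. Insulin transcript Ins1 averaged 4304 CPM in knockout and 48631 CPM in control, and Ins2 112998 CPM in knockout and 110920 CPM in control. The sum of 7 alpha cell markers was 26258 to 34945 CPM in knockout and 37132 to 50271 CPM in control, with 1 of 7 lower. The islets carried other cells too. Over 12 endothelial markers the sum was 768 to 915 CPM in knockout and 1177 to 1183 CPM in control, with 9 of 12 genes lower. Over 12 pericyte and stellate cell markers it was 705 to 930 CPM in knockout and 1010 to 1352 CPM in control, with 5 of 12 lower. Over 13 acinar markers it was 4181 to 12149 CPM in knockout and 11697 to 41523 CPM in control, with 2 of 13 lower. The part of these cells in the results that follow was not tested beyond the fits with an acinar or an endothelial covariate. In bulk RNA, fewer cells of a type and less RNA per cell cannot be told apart.

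Of the 53 members, 43 passed the filter on low counts and were tested with edgeR's quasi-likelihood test. At a Benjamini-Hochberg adjusted p under 0.05 over all 14770 genes tested, 6 members were higher in knockout (Gnas, Gnai3, Gna12, Gng12, Rgs8 and Rgs16), 6 were lower (Gnai1, Gnb5, Gng2, Gng3, Rgs3 and Rgs12) and 31 did not pass. That is 27.9% of the tested members, near the 24.4% of all tested genes that were called (11.8% higher and 12.6% lower). The median log2 fold change, knockout over control, was −0.05 over the tested members and −0.0075 over all tested genes. In 18 of the 43 tested members the 2 groups did not overlap, 7 with all knockout libraries above and 11 with all below, beside 42% of all tested genes (19.9% above and 22.1% below). Of the 12 called members, 3 (Gng12, Gng3 and Rgs8) changed more than 2-fold, or 25%, beside 23.6% of all called genes. The authors' deposited table, in which 12.8% of 19440 genes with an adjusted p had one under 0.05, called 7 members (Gnas, Gnai1, Gnai3, Gnb5, Gng12, Rgs12 and Rgs16), all of them among the 12. The member counts were 6 higher and 6 lower with DESeq2 and with limma-voom too, which called 25% and 23.5% of all genes, and 6 higher and 9 lower with upper-quartile factors, which called 24.8%. They were 5 higher and 2 lower without control library 10 (16% of all genes called). With acinar markers as a covariate, 2 members were higher (Gnas and Gng12) and 1 lower (Gnai1), beside 11.5% of all genes called, and with endothelial markers, whose level can hardly be told apart from genotype here, 1 was higher (Gng12) and 0 lower (0.325%), with 3 lower at an unadjusted p under 0.05 in edgeR.

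**Figure D1:**
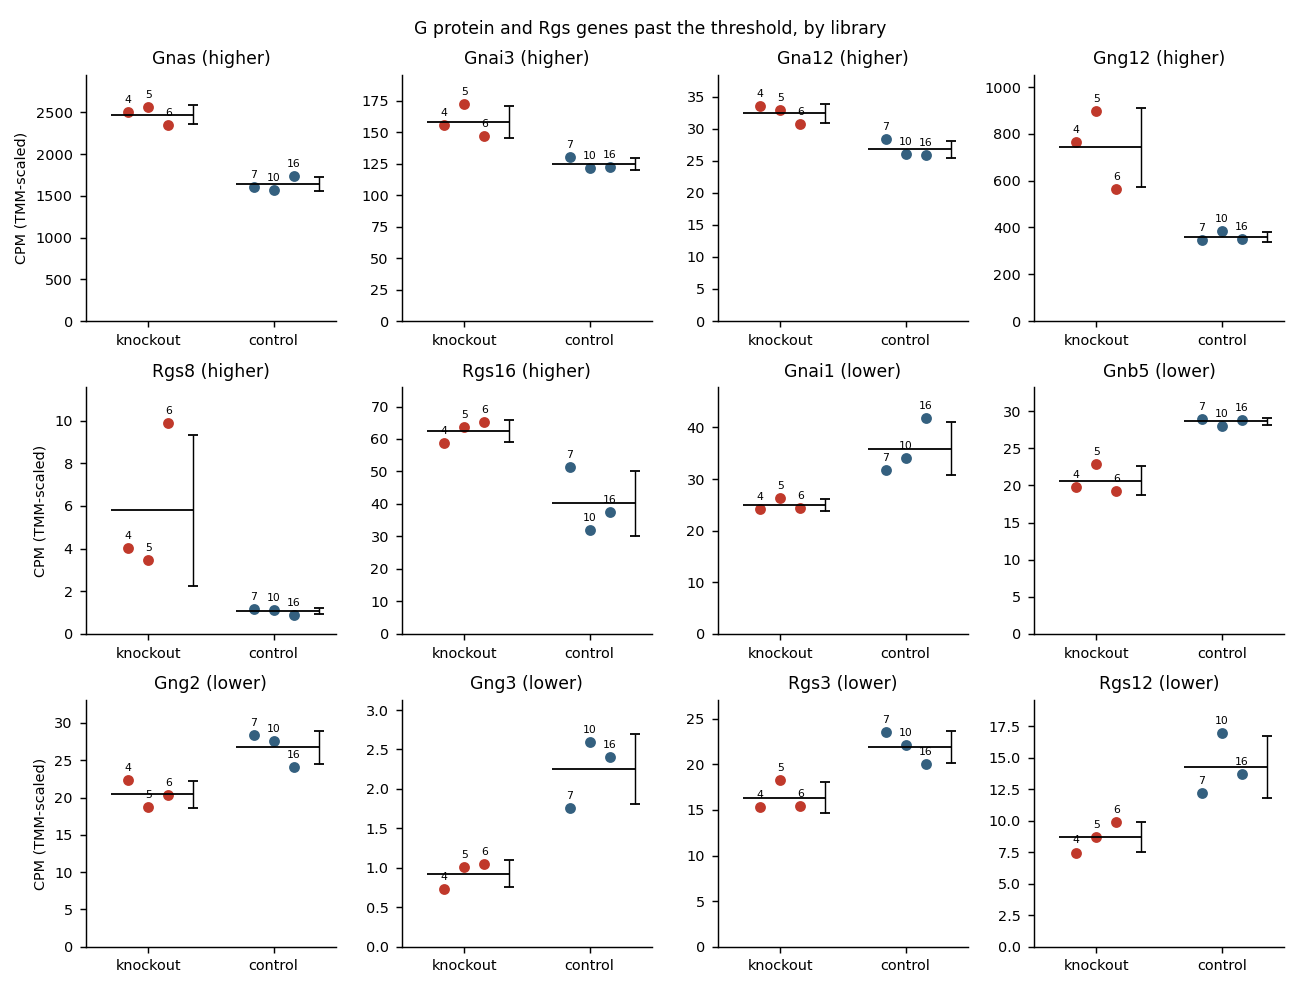
CPM (scaled by TMM factors, linear axis) of the 12 members past the threshold, one point per library with its number, knockout left of control; lines are means and bars SD (n = 3 each). In each panel the groups do not overlap, and the spread is widest in knockout for Gng12 (563 to 899 CPM) and Rgs8 (3.48 to 9.87 CPM).

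**Figure D2:**
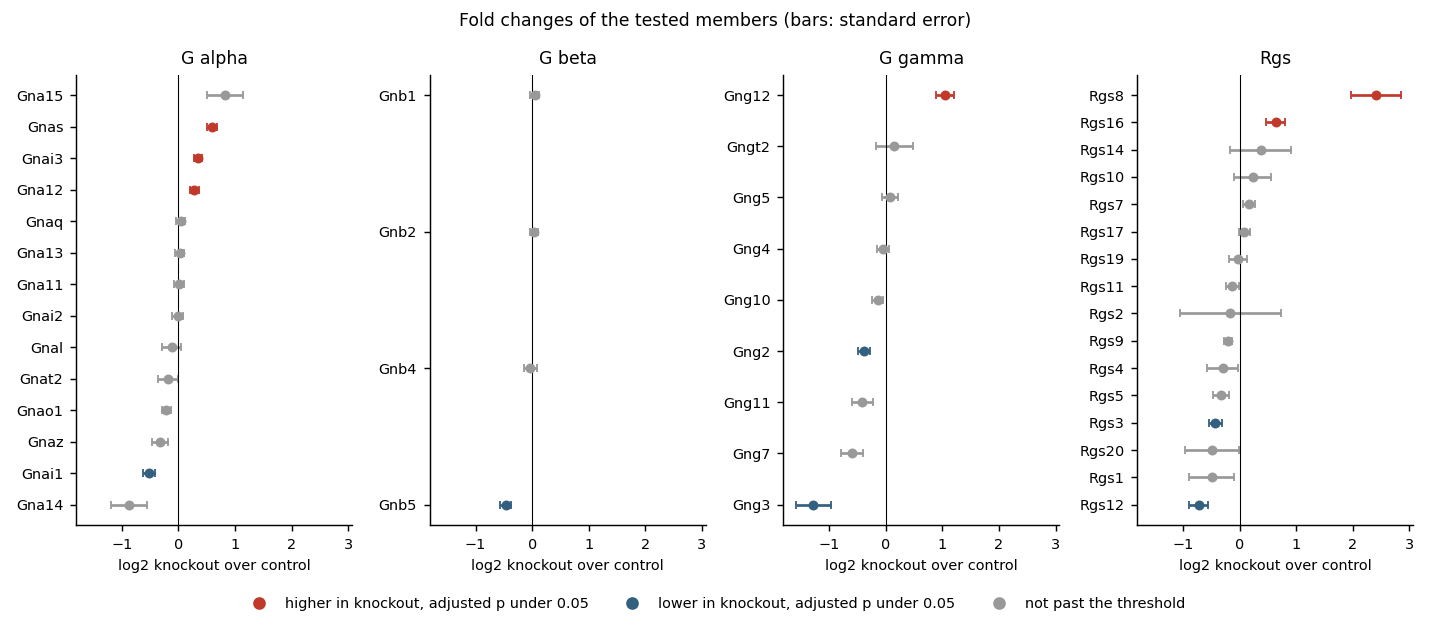
Log2 fold change, knockout over control, of the 43 tested members from the edgeR fit, by class, with standard errors derived from its F statistic as bars. Rgs8 lies farthest to the right at 2.41 and Gng3 farthest to the left at −1.28, and Rgs2 has the widest bar, with a standard error of 0.89.

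Among the alpha subunits 3 of 14 tested members rose, 1 fell and 10 did not pass, with a median log2 fold change of −0.00447. Gnas, which encodes Gs alpha, the link from the GLP-1, GIP and glucagon receptors to cyclic AMP, was at 2500, 2568 and 2348 CPM in knockout libraries, against 1610, 1574 and 1734 CPM in control libraries. Every knockout library was above every control library, and the spread within each genotype was small beside the gap. The means were 2472 ± 113 CPM in knockout and 1639 ± 83.5 CPM in control (SD, n = 3 each), a log2 fold change of 0.59 (SE 0.09, adjusted p = 0.00217, edgeR). Divided by merged exon length, Gnas was at 238 CPM per kb in knockout, above Gnai2 at 196, and at 158 CPM per kb in control, below Gnai2 at 199. The merged length joins the exons of all annotated transcripts of a gene, 10376 bases for Gnas and 2300 for Gnai2. The order of these genes therefore depends on the length used. It made up 61.5 ± 0.472% of the summed alpha subunit CPM in knockout and 50.5 ± 0.223% in control. Gnas has RefSeq starts far apart, with promoter windows from chr2:174284070 and from chr2:174329756. Counts were per gene and did not separate its transcripts, so the rise cannot be assigned to that of Gs alpha alone. The Gnas locus also yields the antisense transcript Nespas, whose exons overlap it on the other strand. No source used here states whether counting used strand, so reads of the pair may be mixed. Nespas was at 4.05, 4.96 and 4.66 CPM in knockout and 0.826, 1.42 and 0.686 CPM in control (log2 fold change 2.19, SE 0.31, adjusted p = 0.00159, edgeR). It too did not overlap between genotypes, at a level far below that of Gnas.

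The 3 Gi alpha genes did not move together. Gnai3 was at 156, 172 and 147 CPM in knockout libraries and 130, 122 and 122 CPM in control libraries (158 ± 12.9 in knockout and 125 ± 4.74 in control, log2 fold change 0.35, SE 0.08, adjusted p = 0.0125, edgeR). Gnai1 was at 24.2, 26.4 and 24.4 CPM in knockout libraries and 31.8, 34.2 and 41.8 CPM in control libraries (25.0 ± 1.22 in knockout and 35.9 ± 5.20 in control, log2 fold change −0.52, SE 0.11, adjusted p = 0.0105, edgeR). Gnai3 was thus above control and Gnai1 below it in every library. With the acinar covariate Gnai3 no longer passed, at a larger log2 fold change and a wider error (0.42, SE 0.12, adjusted p = 0.0560, edgeR). Gnai1 did pass with it (−0.69, SE 0.15, adjusted p = 0.0259, edgeR), and with the endothelial one neither passed. Gnai2, which had 435, 467 and 452 CPM in knockout and 437, 410 and 523 CPM in control, overlapped between genotypes (log2 fold change −0.02, SE 0.10, adjusted p = 0.924, edgeR). Summed over the 3 genes, the level was 615, 666 and 623 CPM in knockout libraries and 599, 566 and 687 CPM in control libraries, with overlap.

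Gnao1 encodes Go alpha, an abundant inhibitory alpha subunit of neurons and endocrine cells. It was at 492, 531 and 454 CPM in knockout libraries and 564, 568 and 582 CPM in control libraries. All knockout libraries were below all control libraries, but the difference did not pass the test (log2 fold change −0.21, SE 0.08, adjusted p = 0.0958, edgeR). Per length, Gnao1 (56.8 CPM per kb in knockout and 65.9 in control) and Gnai3 (48.5 in knockout and 38.2 in control) stood below both Gnas and Gnai2.

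None of the 4 Gq family genes passed in edgeR, DESeq2 or limma-voom, and 2 (Gna14 and Gna15) had an unadjusted p under 0.05 in edgeR. Gnaq was at 131, 142 and 117 CPM in knockout and 121, 134 and 124 CPM in control, and Gna11, its close relative, at 123, 123 and 103 CPM in knockout and 115, 113 and 120 CPM in control. Both pairs of ranges overlapped, with log2 fold changes of 0.04 and 0.01. The minor members Gna14 (0.80, 1.27 and 1.36 CPM in knockout; 1.75, 2.21 and 2.33 CPM in control) and Gna15 (1.72, 1.61 and 2.09 CPM in knockout; 1.24, 1.08 and 0.69 CPM in control) did not overlap between genotypes. Their log2 fold changes, −0.88 (SE 0.31, adjusted p = 0.0731) for Gna14 and 0.82 (SE 0.32, adjusted p = 0.0975) for Gna15, were the farthest from 0 among members that did not pass in edgeR. Gna12, an alpha subunit of the G12 family, was at 33.6, 32.9 and 30.7 CPM in knockout and 28.3, 26.1 and 25.9 CPM in control (log2 fold change 0.28, SE 0.08, adjusted p = 0.0366, edgeR). Its groups did not overlap, but the call was lost when any of 4 libraries was left out (knockout 4 or 5, control 10 or 16; largest adjusted p = 0.117).

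Of 4 tested beta subunits, 1 fell (Gnb5) and 3 did not pass. Gnb1 was at 305, 304 and 280 CPM in knockout libraries and 269, 294 and 297 CPM in control libraries (log2 fold change 0.05, SE 0.08, adjusted p = 0.698, edgeR). Gnb2 was at 217, 233 and 209 CPM in knockout and 212, 208 and 225 CPM in control (log2 fold change 0.03, adjusted p = 0.785, edgeR). Both overlapped between genotypes and stood close to each other per length, Gnb1 at 94.2 CPM per kb in knockout and 91.2 in control and Gnb2 at 89.0 in knockout and 87.1 in control. Gnb5 is the divergent beta subunit that pairs with the R7 group of Rgs proteins in place of a gamma subunit. It was at 19.8, 22.9 and 19.3 CPM in knockout libraries, against 29.0, 28.0 and 28.8 CPM in control libraries. The lowest control library stood above the highest knockout library, and the log2 fold change was −0.47 (SE 0.09, adjusted p = 0.00804, edgeR). The call was lost with the acinar covariate (log2 fold change −0.40, SE 0.14, adjusted p = 0.109, edgeR) and the endothelial one (−0.11, SE 0.28, adjusted p = 0.894, edgeR). Summed over the class, the level was 557, 574 and 522 CPM in knockout and 523, 546 and 567 CPM in control, with overlap.

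Of the partners of Gnb5, the 3 tested R7 genes (Rgs7, Rgs9 and Rgs11) did not pass in edgeR, DESeq2 or limma-voom, and 1 (Rgs9) had an unadjusted p under 0.05 in edgeR. Rgs9 was at 87.7, 96.4 and 87.4 CPM in knockout and 100, 112 and 100 CPM in control, without overlap (log2 fold change −0.20, SE 0.07, adjusted p = 0.0775, edgeR). Rgs11 was at 140, 107 and 147 CPM in knockout and 148, 132 and 150 CPM in control, and Rgs7 at 20.5, 24.3 and 24.2 CPM in knockout and 18.3, 22.2 and 20.8 CPM in control, each with overlap. Rgs7bp, which anchors R7 complexes to the membrane, fell, with means of 19.9 ± 2.23 CPM in knockout and 31.0 ± 6.74 CPM in control (log2 fold change −0.64, SE 0.17, adjusted p = 0.0260, edgeR). Its call was lost without knockout 4, knockout 5, control 7 or control 10 (largest adjusted p = 0.0909).

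Gamma subunits carry the lipid anchor of the beta-gamma dimer. Of 9 tested, 1 rose, 2 fell and 6 did not pass, with a median log2 fold change of −0.14. Gng12, a widely expressed gamma subunit, was at 766, 899 and 563 CPM in knockout libraries, against 346, 383 and 350 CPM in control libraries. Every knockout library was above every control library, with knockout library 6 nearest to control. The means were 743 ± 169 CPM in knockout and 359 ± 20.5 CPM in control, a 2.07-fold difference (log2 fold change 1.05, SE 0.16, adjusted p = 0.00295, edgeR). Per length, it was at 157 CPM per kb in knockout and 76.0 CPM per kb in control, next to Gng4 at 57.8 in knockout and 60.0 in control. Gng4 was at 177, 213 and 161 CPM in knockout and 176, 195 and 202 CPM in control, with overlap (log2 fold change −0.05, SE 0.11, adjusted p = 0.758, edgeR).

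Gng12 made up 74.4 ± 2.86% of the summed gamma CPM in knockout and 57.1 ± 1.57% in control, and Gng4 18.7 ± 1.51% in knockout and 30.3 ± 1.44% in control. The class summed to 1013, 1175 and 791 CPM in knockout libraries and 602, 654 and 631 CPM in control libraries, without overlap. Without Gng12 the sum was 250 ± 24.3 CPM in knockout and 270 ± 12.5 CPM in control. The alpha class showed the same dependence on 1 gene: its sum was 4019 ± 191 CPM in knockout and 3248 ± 152 CPM in control, and without Gnas 1547 ± 81.4 CPM in knockout and 1609 ± 69.0 CPM in control.

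**Figure D3:**
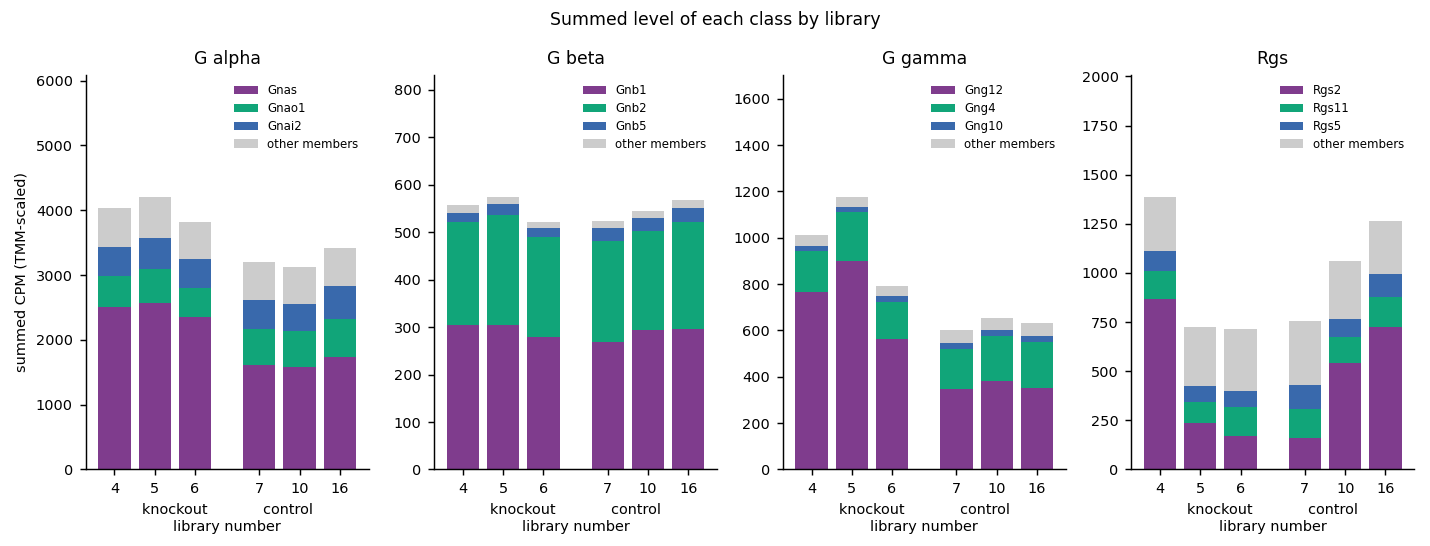
Summed CPM (linear axis from 0) of each class in each library, knockout libraries left of control libraries, with the 3 members of highest mean CPM in colour and the others in grey. Gng12 accounts for the taller knockout bars of the gamma class, Gnas for those of the alpha class, and Rgs2 (161 to 868 CPM) for the uneven bars of the Rgs class in both genotypes.

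The 2 gamma subunits that fell were less abundant. Gng2 was at 22.3, 18.7 and 20.3 CPM in knockout and 28.4, 27.5 and 24.1 CPM in control (log2 fold change −0.39, SE 0.11, adjusted p = 0.0285, edgeR). Gng3, known as a neuronal gamma subunit, averaged 0.928 ± 0.167 CPM in knockout and 2.25 ± 0.441 CPM in control (log2 fold change −1.28, SE 0.31, adjusted p = 0.0178, edgeR). Both were lower in every knockout library, and both calls were lost when some single libraries were left out (Gng2 without knockout 5 or 6 or control 7 or 10, Gng3 without knockout 4 or control 10 or 16; largest adjusted p = 0.0921). Exons of Gng3 overlap those of Bscl2 on the other strand. Bscl2 was at 43.6, 45.4 and 44.0 CPM in knockout and 40.7, 39.5 and 40.6 CPM in control and did not pass (log2 fold change 0.14, adjusted p = 0.150, edgeR). Gng10, the third gamma subunit by mean CPM over all 6 libraries though below Gng2 in control, was at 23.5, 20.2 and 23.8 CPM in knockout and 25.0, 23.4 and 26.2 CPM in control (log2 fold change −0.14, adjusted p = 0.327, edgeR). Gng7 (log2 fold change −0.59, adjusted p = 0.0570) and Gng11 (log2 fold change −0.41, adjusted p = 0.129) were below all control libraries in every knockout library but did not pass in edgeR.

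Rgs genes passed the test in 4 of 16 cases, 2 higher and 2 lower, and their median log2 fold change was −0.14. Rgs8 and Rgs16 are small R4 Rgs proteins, both known in mice from endocrine cells of the embryonic pancreas and from models of diabetes. Rgs8 was at 4.05, 3.48 and 9.87 CPM in knockout libraries, against 1.19, 1.13 and 0.891 CPM in control libraries. All knockout libraries were above all control libraries, and knockout library 6 had the highest level. The log2 fold change, 2.41 (SE 0.44, adjusted p = 0.00586, edgeR), corresponds to 5.32-fold. Leaving out any 1 library kept the call. The acinar covariate ended it, with a larger log2 fold change and a wider error (2.82, SE 0.77, adjusted p = 0.0604, edgeR). The endothelial covariate ended it too and turned the log2 fold change to −0.62 (SE 0.66, adjusted p = 0.709, edgeR). Rgs16 was at 58.8, 63.8 and 65.2 CPM in knockout libraries and 51.3, 31.9 and 37.5 CPM in control libraries. The knockout libraries lay close together and control library 7 nearest to them (log2 fold change 0.64, SE 0.17, adjusted p = 0.0301, edgeR). The call for Rgs16 was lost without knockout 4, 5 or 6 or control 16 (largest adjusted p = 0.0995).

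In the RefSeq gene order Rgs8 and Rgs16 are neighbouring coding genes on mouse chromosome 1, with 0 coding genes between them. They were the 2 Rgs genes that rose, and their promoters are printed for that reason. Each window runs from 250 bases before to 50 bases after a RefSeq start (GRCm38.p6, plus strand, 5′ to 3′). Capitals mark an E-box of the form CAGATG, or CATCTG read from the other strand, a form that Neurod1 and related factors are known to bind. The third window, of Gnb5, is shown as the 1 promoter among the 6 lower members with this E-box. Rgs8 lies at chr1:153652787-153653086 (the first of its windows), Rgs16 at chr1:153740103-153740402 and Gnb5 at chr9:75306038-75306337.
Rgs8: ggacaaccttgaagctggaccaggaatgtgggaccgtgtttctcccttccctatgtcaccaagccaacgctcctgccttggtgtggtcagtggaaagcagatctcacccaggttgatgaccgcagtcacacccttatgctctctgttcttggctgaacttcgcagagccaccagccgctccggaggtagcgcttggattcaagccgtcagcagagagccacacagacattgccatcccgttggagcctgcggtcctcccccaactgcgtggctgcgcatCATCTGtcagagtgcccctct
Rgs16: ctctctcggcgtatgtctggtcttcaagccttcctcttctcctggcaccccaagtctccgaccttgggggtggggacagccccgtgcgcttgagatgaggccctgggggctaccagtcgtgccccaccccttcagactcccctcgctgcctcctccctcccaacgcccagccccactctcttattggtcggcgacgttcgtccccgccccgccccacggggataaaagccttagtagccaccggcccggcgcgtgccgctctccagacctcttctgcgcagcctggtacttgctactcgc
Gnb5: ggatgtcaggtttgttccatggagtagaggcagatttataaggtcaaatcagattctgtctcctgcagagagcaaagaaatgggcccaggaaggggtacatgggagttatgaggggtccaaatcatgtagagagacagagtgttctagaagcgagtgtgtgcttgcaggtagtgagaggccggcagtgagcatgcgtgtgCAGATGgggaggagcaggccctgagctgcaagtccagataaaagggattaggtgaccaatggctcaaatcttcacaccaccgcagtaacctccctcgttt
Of the 39 members with a window, 10 held CAGATG or CATCTG, beside 19.2% of 27025 genes, and 10 held CAGCTG, an E-box that reads the same on both strands, beside 18.3% of genes. The first motif was found in 1 of 6 higher members (Rgs8) and 1 of 6 lower members (Gnb5). CAGCTG was found in 1 of 6 higher members (Rgs8, in both of its other windows) and 3 of 6 lower members (Gnai1, Gng2 and Rgs12). The Rgs16 window held neither. A match is a description of the letters in the window.

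Rgs12 and Rgs3 fell. Rgs12, a large multidomain protein with a GoLoco motif that holds Gi alpha in its GDP form, was at 7.49, 8.71 and 9.87 CPM in knockout and 12.2, 17.0 and 13.7 CPM in control (log2 fold change −0.72, SE 0.16, adjusted p = 0.0128, edgeR). Rgs3, an R4 regulator of Gi and Gq alpha, was at 15.3, 18.3 and 15.4 CPM in knockout and 23.6, 22.1 and 20.1 CPM in control (log2 fold change −0.43, SE 0.11, adjusted p = 0.0231, edgeR). Neither overlapped between genotypes. The call was lost for Rgs12 without control 10 (adjusted p = 0.0517) and for Rgs3 without knockout 4 or 6 or control 7 or 10 (largest adjusted p = 0.0953).

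Rgs2, which acts mainly on Gq alpha and is known to respond to hormones and stress, had the widest error of the tested Rgs genes. It was at 868, 238 and 170 CPM in knockout libraries 4, 5 and 6 and 161, 540 and 727 CPM in control libraries 7, 10 and 16. The ranges of the 2 genotypes nearly coincided (425 ± 385 CPM in knockout and 476 ± 289 CPM in control), and the log2 fold change was −0.16 (SE 0.89, adjusted p = 0.920, edgeR). It took 23.8 to 62.6% of the summed Rgs CPM in knockout and 21.3 to 57.5% in control. Without Rgs2 the Rgs sum was 517 ± 29.9 CPM in knockout and 552 ± 38.0 CPM in control.

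Rgs4, known in mouse beta cells as a brake on muscarinic stimulation of insulin release, was at 38.2, 46.7 and 54.6 CPM in knockout and 79.2, 50.7 and 40.9 CPM in control (log2 fold change −0.30, SE 0.28, adjusted p = 0.487, edgeR). The genotypes overlapped, with control library 7 the highest. Rgs5, a marker of pericytes as well as an Rgs gene, was at 105, 79.8 and 80.4 CPM in knockout and 122, 92.6 and 118 CPM in control, with overlap (log2 fold change −0.33, SE 0.14, adjusted p = 0.136, edgeR). In the pericyte and stellate cell list, whose sum given above was lower, the genes called lower were Notch3, Col1a1, Col3a1, Thy1 and Sparc. Pdgfrb, Cspg4, Acta2 and Des did not pass in edgeR, and the part of pericytes in Rgs5 was not tested. Rgs13, which the filter left untested, was counted 1, 15 and 111 times in knockout libraries 4, 5 and 6 and 8, 2 and 2 times in control libraries 7, 10 and 16, so knockout library 6 held most of its reads. That library also had the highest leukocyte marker sum, which over 12 measured markers was 341, 155 and 480 CPM in knockout and 197, 249 and 119 CPM in control. The other knockout libraries did not keep that order. Library 4, at 341 CPM, held 1 Rgs13 read, and library 5, at 155 CPM, held 15. Rgs14, a GoLoco relative of Rgs12, was at 3.87, 1.07 and 2.89 CPM in knockout and 2.37, 2.74 and 0.82 CPM in control. Its lowest value in each genotype fell in the library with the lowest leukocyte sum. The highest values fell together in control (library 10) but not in knockout, with Rgs14 highest in library 4 and the leukocyte sum in library 6. The part of leukocytes in Rgs13 and Rgs14 was not tested.

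**Figure D4:**
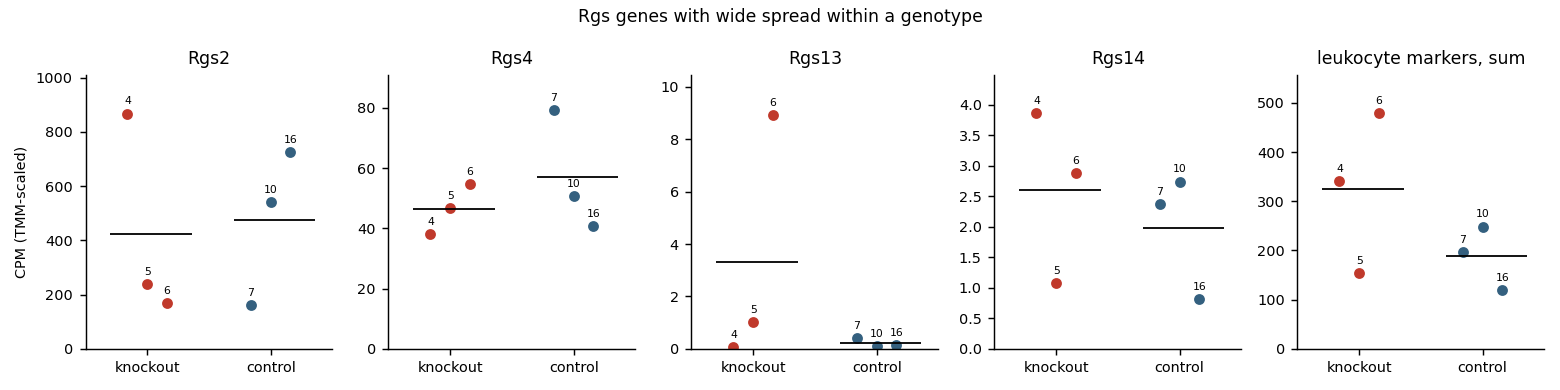
CPM (TMM-scaled, linear axes from 0) of Rgs2, Rgs4, Rgs13 and Rgs14 and the summed CPM of the leukocyte markers, one point per library with its number, knockout left of control; lines are means. The genotypes overlap in every panel, with Rgs2 highest in knockout library 4 (868 CPM) and Rgs13 in knockout library 6 (8.91 CPM).

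The remaining tested members were Gnal, Gnaz, Gna13, Gnat2, Gnb4, Gng5, Gngt2, Rgs1, Rgs10, Rgs17, Rgs19 and Rgs20. None passed in edgeR, DESeq2 or limma-voom, 1 (Gnaz) had an unadjusted p under 0.05 in edgeR, all overlapped between genotypes, and their log2 fold changes ran from −0.50 (Rgs1) to 0.23 (Rgs10). The 10 untested members, below the filter on low counts, were the phototransduction and taste alpha subunits Gnat1 and Gnat3, Gnb3, Gngt1, Gng8, Gng13, Rgs6, Rgs13, Rgs18 and Rgs22. Gngt1 and Gng13 had 0 counts in all 6 libraries, which allows up to 0.147 to 0.241 CPM per library (3 counts, counting error only). Other members are neighbours in the RefSeq order too, among them Gnat2 beside Gnai3, Gnat3 beside Gnai1 and Gnaq beside Gna14, but no such pair other than Rgs8 and Rgs16 was called together. Exons of Gng12, Gnb5, Gng2, Rgs8, Rgs12 and Rgs16 overlap those of unnamed or predicted transcripts in the annotation, and counts were not split further.

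Of 80 listed other receptors, effectors and regulators, 77 had a row and 67 were tested: 15 rose, 11 fell and 41 did not pass. That is 38.8% called, beside 24.4% of all tested genes, with a median log2 fold change of 0.02 for the list and −0.0075 for all tested genes. The list was chosen with earlier results of these data known, so its share cannot be read as an enrichment. The 15 that rose became 7 with the acinar covariate, 9 without control 10 and 1 with the endothelial covariate, and the 11 that fell became 10, 11 and 1 in those fits. Among 9 receptors that couple mainly to Gs, 2 rose and 3 fell. Gipr, the receptor of the incretin GIP, averaged 48.8 ± 0.945 CPM in knockout and 171 ± 12.0 CPM in control (log2 fold change −1.81, SE 0.07). Vipr1, a VIP receptor, averaged 41.0 ± 6.62 CPM in knockout and 182 ± 12.2 CPM in control (log2 fold change −2.15, SE 0.12). Gcgr, the glucagon receptor, averaged 74.7 ± 4.70 CPM in knockout and 42.1 ± 1.66 CPM in control (log2 fold change 0.83, SE 0.07). Glp1r, the GLP-1 receptor, averaged 520 ± 89.2 CPM in knockout and 243 ± 30.1 CPM in control (log2 fold change 1.10, SE 0.14). Adcyap1r1 was called lower (log2 fold change −0.62, SE 0.13). Receptors that share Gs alpha, with Gnas higher, thus moved in both directions. Their list summed to 714 ± 88.1 CPM in knockout and 677 ± 25.0 CPM in control.

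Among 13 tested receptors coupled mainly to Gi or Go, 4 rose and 3 fell. Aplnr, the apelin receptor, averaged 146 ± 46.9 CPM in knockout and 6.60 ± 1.15 CPM in control (log2 fold change 4.49, SE 0.32). Galr1, a galanin receptor, averaged 4.28 ± 1.95 CPM in knockout and 32.2 ± 2.94 CPM in control (log2 fold change −2.91, SE 0.28), and the cannabinoid receptor Cnr1 7.54 ± 0.243 CPM in knockout and 16.8 ± 3.35 CPM in control (log2 fold change −1.15, SE 0.16). Among 9 tested receptors coupled mainly to Gq, 2 rose and 1 fell. The nucleotide receptor P2ry6 averaged 4.29 ± 0.796 CPM in knockout and 43.2 ± 6.99 CPM in control (log2 fold change −3.32, SE 0.17). The zinc receptor Gpr39 had a log2 fold change of 0.90 (SE 0.18) and the muscarinic receptor Chrm3 one of 0.64 (SE 0.16), with the Chrm3 call lost without knockout 6 or control 7, 10 or 16.

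Downstream, the phospholipase C beta genes moved apart. Plcb1 averaged 22.8 ± 3.15 CPM in knockout and 39.2 ± 1.19 CPM in control (log2 fold change −0.78, SE 0.11, adjusted p = 0.00129, edgeR), while Plcb4 (0.52) and Plcb3 (0.27) rose in log2 fold change. The call of Plcb3 was lost without knockout 4, 5 or 6 or control 10 or 16. None of the 3 tested subunits of G protein-gated potassium channels passed in edgeR, DESeq2 or limma-voom, 1 (Kcnj6) had an unadjusted p under 0.05 in edgeR, and Kcnj5, the most abundant, averaged 38.0 ± 13.5 CPM in knockout and 31.7 ± 6.92 CPM in control. Of 7 tested receptor kinases and arrestins 2 rose, Adrbk1 (log2 fold change 0.27, SE 0.06, adjusted p = 0.0143) and Adrbk2 (0.25, SE 0.07, adjusted p = 0.0270) in edgeR, the second being lost without knockout 5 or control 7, 10 or 16.

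Among the listed GoLoco proteins and chaperones, Gpsm1 and Ric8b were called. Gpsm1, a GoLoco protein that holds Gi alpha in its GDP form, was at 19.4, 23.8 and 19.9 CPM in knockout libraries, against 103, 113 and 132 CPM in control libraries. The groups were far apart, with means of 21.1 ± 2.41 CPM in knockout and 116 ± 14.6 CPM in control (log2 fold change −2.46, SE 0.12, adjusted p = 1.03e-05, edgeR). Ric8b, a chaperone and exchange factor known to stabilise Gs alpha, averaged 122 ± 7.44 CPM in knockout and 79.9 ± 9.44 CPM in control (log2 fold change 0.61, SE 0.09, adjusted p = 0.00242, edgeR). It was the 1 of 5 tested chaperones that passed. Of 9 tested proteins with an RGS-like domain 2 rose and 1 fell: Axin2 had a log2 fold change of −1.37 (SE 0.16), Axin1 of 0.26 and Snx13 of 0.21. The calls of Axin1 (knockout 5, control 7 or 10) and Snx13 (knockout 4 or 5, control 7, 10 or 16) were lost when any of the libraries in parentheses was left out. Of 2 beta-like proteins 0 passed in edgeR, DESeq2 or limma-voom and 0 had an unadjusted p under 0.05 in edgeR, Gnb2l1 being at 348 ± 31.8 CPM in knockout and 348 ± 21.9 CPM in control.

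**Figure D5:**
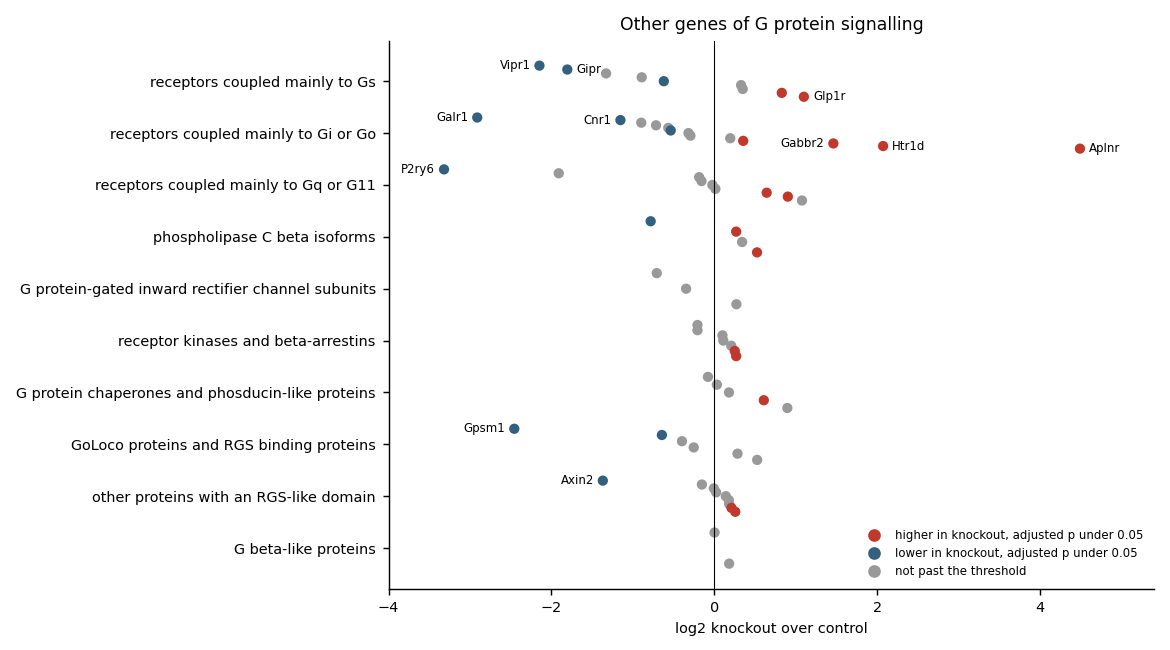
Log2 fold change, knockout over control, of the 67 tested genes of G protein signalling outside the member families, by list; colours mark adjusted p under 0.05 and direction, and called genes beyond 1 in size are labelled. Aplnr lies farthest to the right at 4.49 and P2ry6 farthest to the left at −3.32.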

How the data were processed

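Bulk RNA of islets picked by hand after collagenase digestion was sequenced from TruSeq libraries as single-end reads, per the labels' protocols. Deposited by the authors were whole-number counts of each library and their own comparison, with mean scaled signal per group, ratio, log2 fold change and p-values for 23284 genes. The submitters' processing notes name bcl2fastq 1.8.4, TopHat2 2.1.0, Cufflinks 2.0.2, DESeq and build mm9, with no role or order; no source used here gives the counter, the annotation or strand handling, and overlapping or antisense genes were left as counted.

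Libraries were grouped by title. In R 4.3.3, edgeR 4.0.16 (filterByExpr, minimum count 10 and minimum total 15; TMM factors; robust glmQLFit and glmQLFTest) tested 14770 genes with Benjamini-Hochberg adjustment, threshold 0.05. The standard error given for edgeR was derived as the size of the log2 fold change over the square root of its F statistic. CPM used TMM-scaled totals, and CPM per kb merged GENCODE M21 exons of GRCm38. In simulated counts 100 genes were set to change 1.5-fold and 100 2-fold, and the fit recovered 35.4% and 90% of them. Of 14446 unchanged genes, 0.0415% were called falsely. The simulation gave every gene the same spread and changed a far smaller part of the genes than was called here. Its rates therefore do not carry over to these data. Replicates were farther apart than counting error allows (chi-square/df 16.9 to 44.2), so each counted separately. Promoters came from RefSeq. Alternatives used RLE or upper-quartile factors, no filter, DESeq2 1.42.0, limma-voom 3.58.1, no robust estimation, an acinar or endothelial covariate, or 1 library fewer.

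Named genes were all called members, the 3 most abundant of each class, and up to 3 called genes per list. Gnaq, Gna11, Gna14, Gna15, Gng7, Gng11, Rgs4, Rgs7, Rgs9, Rgs13, Rgs14, Nespas, Bscl2, Kcnj6, Glp1r, Adcyap1r1 and Per1 were added after their values were seen. Members and lists were chosen with earlier results of these data known.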

Additional observations from a re-analysis of the deposited data

How the results depend on the processing

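Over 14 alternatives, 11 of the 12 called members kept their direction in all, the exception being Rgs8. Gng12 passed the threshold in all 14, and Gnas and Gnai1 in all but the endothelial covariate. The 6 higher and 6 lower members became 2 and 1 with the acinar covariate and 1 and 0 with the endothelial covariate. The other signalling genes, 15 higher and 11 lower, became 7 and 10 with the acinar covariate and 1 and 1 with the endothelial one. The endothelial level did not overlap between genotypes, so it can hardly be told apart from genotype, and 48 genes (0.325%) were called in that fit. The acinar level overlapped only in that knockout 5 (12149 CPM) stood above control 16 (11697 CPM), so it too is close to genotype. Leaving out single libraries gave 4 to 6 higher and 2 to 5 lower members (2 lower without control 10). It gave 9 to 16 higher and 10 to 12 lower signalling genes (9 higher without control 10). Fewer of all genes were called in those fits too. Of 14868 to 15108 genes tested, 1153 to 1590 were higher and 1225 to 1433 lower. With all libraries, 1736 of 14770 were higher and 1864 lower. DESeq2 and limma-voom each called 6 higher and 6 lower members. Upper-quartile factors added Gnao1, Rgs9 and Gng7 as lower, for 9 in all.

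Among log2 fold changes that turned sign, the cause was not tested. With the endothelial covariate they were 0.17 (SE 0.22) for Gnao1, 0.0268 (SE 0.33) for Gnai2, 0.59 (SE 0.27) for Gng4 and 2.83 (SE 3.37) for Rgs2. They were −0.62 (SE 0.66, adjusted p = 0.709, edgeR) for Rgs8 and −0.30 (SE 0.28) for Gnb2l1, and none of these passed. With the acinar covariate they were −0.0675 for Gna11, −0.025 for Gnb1, 0.36 for Rgs4 and −0.18 for Gnb2l1. Upper-quartile factors gave −0.0233 for Gna11 and −0.0276 for Gnb2l1, no filter gave 0.0181 for Gnai2, and limma-voom gave −0.00147 for Gnb2l1. Leaving out single libraries gave ranges of −0.0312 to 0.12 for Gnaq, −0.0898 to 0.0903 for Gnai2, −0.0344 to 0.10 for Gna11, −0.0128 to 0.0808 for Gnb2, −0.18 to 0.0485 for Gng4, −1.20 to 0.28 for Rgs2, −0.49 to 0.0248 for Rgs4, −0.20 to 0.00226 for Rgs11, −0.0118 to 0.52 for Kcnj5 and −0.0222 to 0.076 for Gnb2l1. No paired analysis was possible because the groups share no replicate number.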

Other observations

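Per1, a clock gene that also responds to glucocorticoids, was at 142, 100 and 83.2 CPM in knockout libraries 4, 5 and 6 and 85.9, 120 and 153 CPM in control libraries 7, 10 and 16. Within each genotype its libraries stood in the same order as those of Rgs2, which was at 868, 238 and 170 CPM in knockout and 161, 540 and 727 CPM in control. Per1 was chosen after its values were seen, and no test was made. Its log2 fold change between genotypes was −0.14 (adjusted p = 0.768, edgeR).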
